A study of Mus musculus with 10 samples.

Results

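Transcripts of 8 Toll-like receptors, the co-receptor gene Cd14 and the adaptor gene Myd88 were followed in tumour macrophages sorted on podoplanin (PDPN), a membrane glycoprotein. The 10 genes were chosen by name, as surface receptors (Tlr1, Tlr2, Tlr4, Tlr6), endosomal receptors (Tlr3, Tlr7, Tlr8, Tlr9), Cd14 and Myd88. All 10 were found among the 46603 genes of the count table, and all 10 passed the filter on low counts. The cells came from tumours of 4T1, a mouse mammary carcinoma line. Viable CD11B+ F4/80+ cells, a surface combination used to gate mouse macrophages, were sorted into a PDPN+ fraction, called PoEMs, and a PDPN- fraction, called non-PoEMs. Tumours 1, 2, 4, 5 and 6 each supplied a library of either fraction, 10 RNA-seq libraries in all. No mouse strain, age or treatment is labelled for either fraction. Whether the 5 tumours grew in different mice is not labelled either. The main test, with the tumour as a block, measures how far the difference between the fractions varied among these tumours. Only the fit without the block also holds the spread in level between them.

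Toll-like receptors are membrane proteins that recognise conserved microbial molecules and some products of damaged cells. Surface receptors bind lipids and proteins: TLR2 pairs with TLR1 or TLR6 for lipopeptides, and TLR4 binds lipopolysaccharide delivered by CD14. Endosomal receptors bind nucleic acids. Apart from TLR3, which signals through TRIF, all of them use MyD88 to activate IRAK kinases and NF-κB, and macrophages are among the cells that carry many of these receptors.

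Library totals ran from 12597829 to 15406722 counts, so that 1 count was worth 0.0652 to 0.0782 CPM (counts scaled to a common library size with TMM). Pdpn, the sorted marker, was higher in PoEMs in 5 of 5 tumours, at 214.5 ± 22.9 CPM against 19.3 ± 7.33 CPM in non-PoEMs (SD, n = 5 each). All 10 macrophage markers looked at had counts in all libraries. In PoEMs 3 of them were higher (Cd68, Itgam and Mertk) and 2 lower (Csf1r and Fcgr1), and their summed level was 16670 to 19200 CPM in non-PoEMs and 16860 to 20210 CPM in PoEMs. Of the other markers tested, 5 of 8 for monocytes, 6 of 6 for neutrophils, 4 of 4 for eosinophils and 2 of 2 for B cells were lower in PoEMs, and 9 of 10 for fibroblasts were higher. By the same test, given below, 14.3% of all genes tested were lower and 13.8% higher. The lists held 10 neutrophil, 8 eosinophil and 8 B cell markers, of which the rest had too few counts to be tested. Summed eosinophil markers measured 57.2 to 141 CPM in non-PoEMs and 4.30 to 12.6 CPM in PoEMs, and Epx and Prg2 had 0 counts in all PoEM libraries. Summed neutrophil markers measured 229 to 328 CPM against 97.2 to 131 CPM, and summed fibroblast markers 29.2 to 41.6 CPM against 289 to 473 CPM. Conventional dendritic cell markers were lower for 3 of 6 tested. Of 6 tumour epithelium markers tested, Cdh1 was higher and Epcam and Krt8 were lower, calls all lost without the tumour as a block. The summed level of the 7 listed was higher in PoEMs in 5 of 5 tumours, at 93.5 to 255 CPM against 77.9 to 208 CPM. Cdh1 was the largest part of that sum, at 75.9 ± 46.8 CPM in non-PoEMs and 124 ± 65.1 CPM in PoEMs (SD). Krt18, the next largest, measured 20.4 ± 2.43 and 17.6 ± 3.76 CPM, and no marker of this list besides Cdh1 was called higher. The part of these other cells in the results below was not tested.

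The comparison asked whether macrophages with podoplanin on their surface differ from the others of the same tumour in the genes for microbial sensing. Tlr9, Tlr1, Myd88, Tlr2 and Cd14 fell in PoEMs, and Tlr4 rose. Thus 5 of 10 were called lower and 1 of 10 higher (edgeR quasi-likelihood test with the tumour as a block, Benjamini-Hochberg adjusted p under 0.05 over all genes). Among all 13595 genes tested, 14.3% were called lower and 13.8% higher, 28.2% in all. Fitted changes of the 6 called genes ran from -0.84 for Tlr9 to 0.17 for Tlr4 on the log2 scale. Tlr3, Tlr6, Tlr7 and Tlr8 did not pass the test. For Tlr9, Tlr1 and Myd88 every PoEM library was below every non-PoEM library, as for 5.13% of all genes tested, and no member of the 10 was above throughout (5.38% of all genes). Without the tumour as a block these 3 genes were called lower and none was called higher, against 6.77% lower and 6.83% higher of all genes, so Tlr2, Cd14 and Tlr4 lost their calls. In sorted pools of cells, fewer cells of a type and less RNA per cell cannot be told apart.

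**Figure D1:**
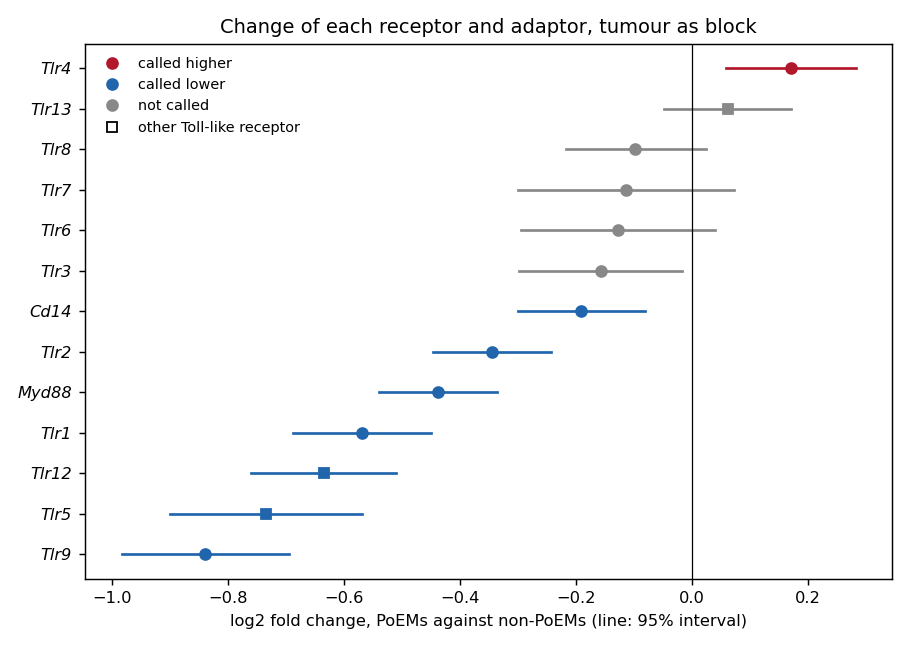
Fitted log2 fold change of each gene in PoEMs against non-PoEMs (horizontal axis) with its 95% interval, from the model with the tumour as a block, for the 10 genes (circles) and 3 other Toll-like receptor genes (squares). Tlr9 lies lowest at -0.84, and Tlr4 is the gene drawn as called higher, at 0.17.

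The promoters of the 4 genes with the largest falls are shown. Each of these genes was lower in PoEMs in 5 of 5 tumours, as was Cd14, whose promoter is not shown. Sequences are from RefSeq (GRCm38.p6), 250 bases before to 50 bases after the transcription start, printed 5′ to 3′ along the gene. Where a gene has more than 1 start in the table, the start farthest upstream was used. Capitals mark matches, on either strand, to PU.1 (GAGGAAGT), to an interferon-response pair (GAAA and, after any 2 bases, GAAA again), to AP-1 (TGANTCA) or to the NF-κB consensus.
Tlr9 promoter, chr9:106222348-106222647, plus strand: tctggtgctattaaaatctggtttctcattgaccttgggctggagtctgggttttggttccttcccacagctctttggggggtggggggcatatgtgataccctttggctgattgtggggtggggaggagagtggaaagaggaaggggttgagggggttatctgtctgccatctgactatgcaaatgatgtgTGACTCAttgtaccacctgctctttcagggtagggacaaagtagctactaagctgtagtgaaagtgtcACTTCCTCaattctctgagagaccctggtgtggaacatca
Tlr1 promoter, chr5:64933509-64933808, minus strand: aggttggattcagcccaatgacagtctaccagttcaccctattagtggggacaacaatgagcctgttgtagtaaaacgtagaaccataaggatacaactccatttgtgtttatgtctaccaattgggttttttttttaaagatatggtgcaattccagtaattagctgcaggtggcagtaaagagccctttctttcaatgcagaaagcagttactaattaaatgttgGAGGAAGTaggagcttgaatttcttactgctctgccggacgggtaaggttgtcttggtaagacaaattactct
Myd88 promoter, chr9:119339969-119340268, minus strand: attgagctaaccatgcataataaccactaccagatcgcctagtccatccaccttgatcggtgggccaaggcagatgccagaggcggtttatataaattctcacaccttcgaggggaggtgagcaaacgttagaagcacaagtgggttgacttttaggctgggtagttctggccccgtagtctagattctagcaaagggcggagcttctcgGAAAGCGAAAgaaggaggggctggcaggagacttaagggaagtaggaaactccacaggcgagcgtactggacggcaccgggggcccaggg
Tlr2 promoter, chr3:83841559-83841858, minus strand: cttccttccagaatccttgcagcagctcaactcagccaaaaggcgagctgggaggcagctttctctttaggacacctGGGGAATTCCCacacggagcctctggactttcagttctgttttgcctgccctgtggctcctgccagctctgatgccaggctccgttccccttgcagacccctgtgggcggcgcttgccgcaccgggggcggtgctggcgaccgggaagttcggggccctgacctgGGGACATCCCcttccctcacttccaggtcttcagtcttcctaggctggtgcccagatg
PU.1 is a factor that sets macrophage identity, and its letters stood at bases -23 to -16 of Tlr1 and, on the other strand, at bases 11 to 18 of Tlr9. Of 32851 promoters of the same length, 3.2% held this word. Tlr9 also held the AP-1 word at bases -58 to -52 (7.81% of all promoters), and Myd88 the interferon-response pair at bases -40 to -31 (3.44%). Tlr2 held NF-κB matches at bases -173 to -163, where 2 of them overlap, and at bases -8 to 2 (8.46%). Of the genes that did not pass the test, Tlr3 held 1 NF-κB match, and the windows of Tlr6 and Tlr8 held none of these words. The promoters of Tlr4, Tlr7 and Cd14 were not used here. A match is a description of letters and no evidence of binding.

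Among the surface receptors, Tlr1 and Tlr2 fell, Tlr4 rose and Tlr6 did not pass the test. Tlr1 (ENSMUSG00000044827, chromosome 5, 64924679 to 64933563 of GRCm38, minus strand) encodes the partner of TLR2 for triacylated lipopeptides. In tumours 1, 2, 4, 5 and 6 it measured 136, 173, 163, 144 and 143 CPM in non-PoEMs and 96.5, 119.9, 97.4, 88.5 and 109.9 CPM in PoEMs. The lowest non-PoEM library lay above the highest PoEM library, and the gene was lower in 5 of 5 tumours. Its log2 fold change was -0.57 ± 0.06 (SE, edgeR adjusted p = 5.73e-06), and it fell by 32.6%.

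Tlr2 (ENSMUSG00000027995, chromosome 3, 83836272 to 83841767, minus strand), the common chain of the lipopeptide receptors, was the most abundant receptor of the 8 in both fractions. It measured 835, 630.1, 694, 688 and 576 CPM in non-PoEMs and 665, 520.2, 518.5, 507 and 481 CPM in PoEMs, in the same order of tumours. Every tumour had less Tlr2 in PoEMs, but the groups overlapped, since PoEMs of tumour 1 exceeded non-PoEMs of tumours 2 and 6. The log2 fold change was -0.35 ± 0.05 (SE, edgeR adjusted p = 0.000109, and 0.0516 without the tumour as a block). Within tumours the log2 ratio stayed between -0.44 and -0.26.

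Tlr4 (ENSMUSG00000039005, chromosome 4, 66827584 to 66930284, plus strand) encodes the lipopolysaccharide receptor. It measured 129.4, 120.8, 129, 120.3 and 141 CPM in non-PoEMs and 134.9, 142.5, 131.8, 152.6 and 160.0 CPM in PoEMs. Each PoEM library was above the non-PoEM library of its tumour, although the groups overlapped. The rise was small, at 0.17 ± 0.05 on the log2 scale or 12.5% (SE, edgeR adjusted p = 0.0253). This call was lost without the tumour as a block (adjusted p = 0.121), with DESeq2 (0.085), without tumour 2 (0.11) and without tumour 5 (0.13). The within-tumour log2 ratio was 0.06 and 0.03 in tumours 1 and 4, and 0.34 in tumour 5.

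Tlr6 (ENSMUSG00000051498, chromosome 5, 64952031 to 64960097, minus strand), the partner of TLR2 for diacylated lipopeptides, lies beside Tlr1 on chromosome 5. It measured 27.4, 34.1, 34.4, 34.6 and 26.5 CPM in non-PoEMs and 26.8, 28.7, 26.8, 30.3 and 30.6 CPM in PoEMs. PoEMs were lower in 4 of 5 tumours, and tumour 6 went the other way. The log2 fold change was -0.13, with a 95% interval from -0.30 to 0.04 (edgeR adjusted p = 0.248), and without tumour 6 it was -0.21 (adjusted p = 0.038). Tlr1 and Tlr6 share sequence: 15.4% of the 50-base words of Tlr1 transcripts and 12.3% of those of Tlr6 also occur in transcripts of other genes, each of the pair among them. The treatment of reads that match both is not stated, so these counts are uncertain to that extent.

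**Figure D2:**
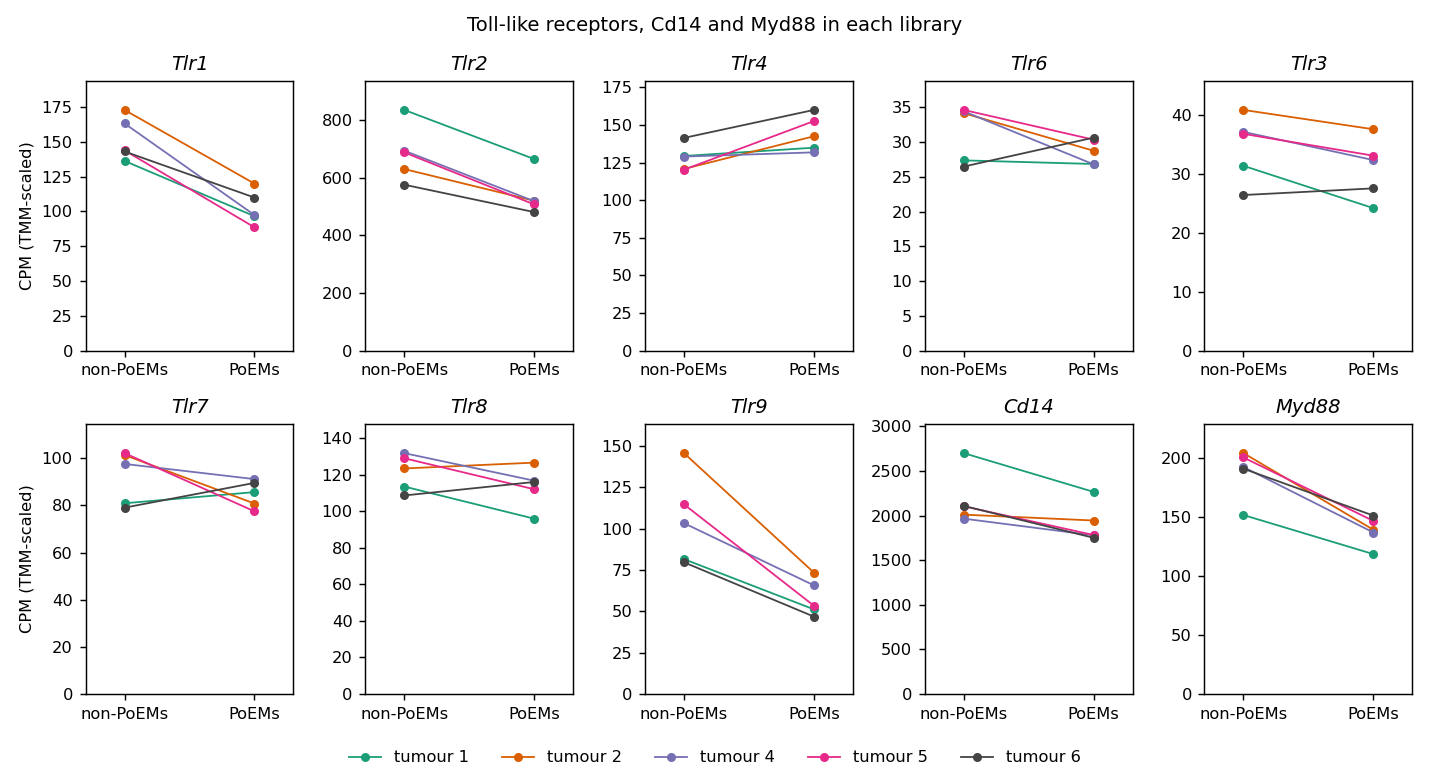
TMM-scaled CPM (vertical axes, from 0, scaled per gene) of the 10 genes in each library, with lines joining the non-PoEM and PoEM libraries of a tumour. All 5 lines fall for Tlr1, Tlr2, Tlr9, Cd14 and Myd88 and all 5 rise for Tlr4, and tumour 1 lies highest for Tlr2 and Cd14 and lowest for Myd88 in both fractions.

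Among the endosomal receptors, Tlr9 fell and the other 3 did not pass the test. Tlr9 (ENSMUSG00000045322, chromosome 9, 106222598 to 106226883, plus strand) encodes the receptor for unmethylated CpG DNA and had the largest change of the 10 genes. It measured 81.5, 145.7, 103.3, 114.7 and 79.6 CPM in non-PoEMs and 51.1, 73.4, 65.7, 53.3 and 46.8 CPM in PoEMs. The fractions did not overlap, and the within-tumour log2 ratio ran from -1.10 in tumour 5 to -0.65 in tumour 4. The fitted log2 fold change was -0.84 ± 0.07 (SE, edgeR adjusted p = 1.62e-06), and it fell by 44.1%. The log2 fold change stayed between -0.90 and -0.78 when any 1 tumour was left out.

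B cells and plasmacytoid dendritic cells are also known to express Tlr9, and B cell markers moved with it. Summed B cell markers measured 88.4, 239.5, 167, 153 and 40.6 CPM in non-PoEMs and 33.5, 76.5, 46.5, 39.5 and 13.3 CPM in PoEMs, in the order of tumours 1, 2, 4, 5 and 6. Tumour 2 was highest and tumour 6 lowest in both fractions, as for Tlr9. Most of that sum was Ighm, the gene of the IgM heavy chain, which fell from 125 ± 63.5 to 35.9 ± 16.9 CPM (SD, n = 5 each). The peak in tumour 2 was not particular to B cell markers. Summed eosinophil markers peaked there in both fractions (141 and 12.6 CPM), but were not lowest in tumour 6. The monocyte gene Ccr2 peaked there too (1175 and 506 CPM), and was lowest in tumour 6 in non-PoEMs and in tumour 5 in PoEMs. Ccr2 changed by -1.18 ± 0.05 on the log2 scale (SE). No other summed cell type list peaked in tumour 2 in both fractions. Without tumour 2, Tlr9 differed by -0.80 on the log2 scale (edgeR adjusted p = 2.92e-05). The part of B cells in the fall of Tlr9 was not tested. Siglech, a plasmacytoid dendritic cell gene, had 52 counts in all non-PoEMs and 29 in all PoEMs, of which tumour 2 gave 33 and 22. Summed plasmacytoid markers overlapped, at 251 to 323 CPM in non-PoEMs and 250.8 to 302.4 CPM in PoEMs. Most of that sum was Bst2 (127 ± 18.8 and 125 ± 15.9 CPM) and Tcf4 (140 ± 22.6 and 120 ± 3.62 CPM, SD). Of 3 tested markers Tcf4 was lower and Runx2 higher (14.3% and 13.8% of all genes), calls lost without the block. The rest had few counts, so the sum says little about them. Besides Siglech, Spib had 109 in all non-PoEMs and 29 in all PoEMs, Ccr9 39 and 17, Klk1 17 and 4, and Cox6a2 47 and 44.

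Tlr7 (ENSMUSG00000044583) and Tlr8 (ENSMUSG00000040522) are neighbours on the minus strand of chromosome X, at 167304929 to 167330558 and 167242696 to 167264329, and both encode receptors for single-stranded RNA. Tlr7 measured 80.9, 101.4, 97.6, 102.2 and 79.0 CPM in non-PoEMs and 85.6, 80.8, 91.2, 77.5 and 89.6 CPM in PoEMs. Tumours 1 and 6 had more in PoEMs, and the other 3 had less. Its log2 fold change was -0.11 (95% interval -0.30 to 0.07, edgeR adjusted p = 0.353). Tlr8 measured 113.6, 123.5, 131.9, 129.1 and 108.7 CPM in non-PoEMs and 96.0, 126.7, 116.8, 112.1 and 116.1 CPM in PoEMs. Here PoEMs were lower in 3 of 5 tumours, with a log2 fold change of -0.10 (95% interval -0.22 to 0.02, edgeR adjusted p = 0.22). Both intervals lay above that of Tlr9, which ran from -0.98 to -0.70.

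Tlr3 (ENSMUSG00000031639, chromosome 8, 45395665 to 45411080, minus strand) encodes the receptor for double-stranded RNA and was the lowest of the 10 genes per exon length. It measured 31.4, 40.8, 37.1, 36.8 and 26.4 CPM in non-PoEMs and 24.2, 37.5, 32.3, 33.1 and 27.5 CPM in PoEMs. The values overlapped widely, and PoEMs were lower in 4 of 5 tumours. The log2 fold change was -0.16 (95% interval -0.30 to -0.02, edgeR adjusted p = 0.0897), and without tumour 6, which alone went the other way, it was -0.21 (adjusted p = 0.0284). Of its 50-base words, 5.3% also occur in Gm45542, an antisense gene that overlaps its exons over 381 bases, so that without known strand counting its reads are uncertain to that extent.

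Both the co-receptor and the adaptor gene fell. Cd14 (ENSMUSG00000051439, chromosome 18, 36725067 to 36726798, minus strand) encodes the protein that hands lipopolysaccharide to TLR4 and was the most abundant of the 10 genes. It measured 2701, 2011, 1966, 2105 and 2109 CPM in non-PoEMs and 2266, 1945, 1779, 1782 and 1751 CPM in PoEMs. All 5 tumours had less in PoEMs, but the log2 ratio in tumour 2 was only -0.05 and the groups overlapped. The log2 fold change was -0.19 ± 0.05 (SE, edgeR adjusted p = 0.0118), and the call was lost without the tumour as a block (adjusted p = 0.238).

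Myd88 (ENSMUSG00000032508, chromosome 9, 119335934 to 119341411, minus strand) encodes the adaptor shared by these receptors except TLR3. It measured 151.4, 204, 192, 200.1 and 190.6 CPM in non-PoEMs and 118, 138.9, 136.6, 146.4 and 150.9 CPM in PoEMs. The lowest non-PoEM library, that of tumour 1, lay just above the highest PoEM library, that of tumour 6, so the groups did not overlap. The log2 fold change was -0.44 ± 0.05 (SE, edgeR adjusted p = 1.29e-05), and it fell by 26.2%, with within-tumour log2 ratios from -0.55 to -0.34. Myd88 shares 290 exonic bases with Acaa1a on the opposite strand, and 7.42% of its 50-base words occur there. Acaa1a differed by -0.08 ± 0.05 on the log2 scale (SE, edgeR adjusted p = 0.234).

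Divided by exon length, the 10 genes spanned more than 2 orders of magnitude within each fraction. In non-PoEMs the levels ran from Cd14 at 1258 ± 172 CPM per kb through Tlr2 (227 ± 32.1), Myd88 (72.8 ± 8.13) and Tlr1 (45.4 ± 4.61) to Tlr8 (33.8 ± 2.77), Tlr9 (30.2 ± 7.81), Tlr4 (23.1 ± 1.54) and Tlr7 (22.6 ± 2.78; SD, n = 5 each). Tlr6 and Tlr3 closed the order, at 8.43 ± 1.10 and 6.62 ± 1.08 CPM per kb. Neighbours in the order did not overlap down to Tlr8, whereas Tlr8 overlapped Tlr9, Tlr9 overlapped Tlr4 and Tlr4 overlapped Tlr7. Tlr7 lay apart from Tlr6, and Tlr6 overlapped Tlr3. In PoEMs Cd14, Tlr2 and Myd88 kept the first 3 places, at 1099 ± 125, 179 ± 24.0 and 53.6 ± 4.87 CPM per kb (SD, n = 5 each). Tlr1, at 30.6 ± 3.71 CPM per kb, overlapped Tlr8 at 31.7 ± 3.12 and Tlr4 at 26.0 ± 2.14. Tlr9, at 16.7 ± 3.18 CPM per kb, came after Tlr7 at 20.8 ± 1.41, whereas it came before Tlr7 in non-PoEMs, and in PoEMs the ranges of the pair overlapped. Tlr6 and Tlr3 closed the order here too, at 7.69 ± 0.493 and 5.94 ± 0.996 CPM per kb.

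**Figure D3:**
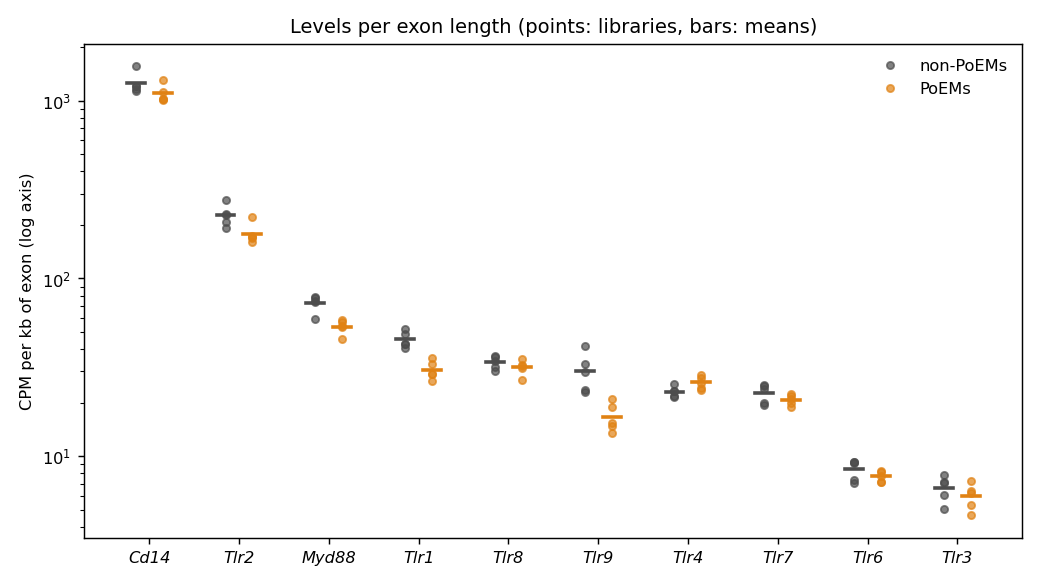
CPM per kb of exon (vertical log axis) of the 10 genes, ordered by their mean in non-PoEMs, with points for the 5 libraries of each fraction and bars for means. Cd14 lies near 1258 CPM per kb in non-PoEMs and Tlr3 near 6.62, and Tlr9 and Tlr1 show the widest separation between the fractions.

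The remaining mouse Toll-like receptors were measured as a fixed list. Tlr5, the flagellin receptor, and Tlr12, a profilin receptor of endosomes, fell by 0.73 ± 0.08 and 0.64 ± 0.06 on the log2 scale (SE, edgeR adjusted p = 1.19e-05 and 3.03e-06), each in 5 of 5 tumours. Tlr5 measured 42.8 ± 7.92 against 25.6 ± 3.99 CPM and Tlr12 44.1 ± 11.7 against 28.3 ± 7.21 CPM (SD, n = 5 each). The call for Tlr12 was lost without the tumour as a block (adjusted p = 0.0749). Tlr13, the receptor for bacterial ribosomal RNA, was the most abundant of these and did not pass the test, at 245 ± 19.4 against 256 ± 22.1 CPM (log2 fold change 0.06, 95% interval -0.05 to 0.17). Tlr11 was below the filter, with 41 counts in all non-PoEMs, 29 of them in tumour 2, and 15 in all PoEMs.

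Genes that act with or below the receptors were lower more often than higher. Of 82 tested genes in 8 pathway lists, 36 were called lower and 8 higher, with a median log2 fold change of -0.17, against 0.007 for all genes tested. Over all genes tested, 14.3% were lower and 13.8% higher. Without the tumour as a block, 24 of the 82 were lower and 3 higher, against 6.77% and 6.83% of all genes. Digestion stress genes are immediate early and heat shock genes induced when tissue is dissociated. Their sum was lower in PoEMs as well, at 7505 to 7824 CPM against 10110 to 12760 CPM, with 6 of 12 called lower and 1 higher. The 6 were all immediate early genes. Heat shock genes did not fall, with log2 fold changes from 0.05 to 1.01, and Hsph1 was the 1 called higher (0.625 ± 0.056, SE, edgeR adjusted p = 2.84e-06). The part of these 12 genes in the pathway counts was not tested.

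Among receptor partners and chaperones, 3 of 10 were lower and 2 higher, against 14.3% and 13.8% of all genes tested. Unc93b1, whose product carries endosomal Toll-like receptors out of the endoplasmic reticulum, fell from 1203 ± 59.9 to 970.4 ± 42.9 CPM (SD), lower in 5 of 5 tumours (edgeR adjusted p = 0.000616). Slc15a4, an endolysosomal transporter needed for signalling by the nucleic acid receptors, fell by 0.25 ± 0.06 on the log2 scale, and Ly86, which encodes the partner of CD180, by 0.17 ± 0.05 (SE, edgeR adjusted p = 0.00543 and 0.0125). The call for Ly86 was lost without the tumour as a block (adjusted p = 0.312). Cd36, a scavenger receptor gene whose product assists TLR2 with TLR6, measured 5.41 ± 1.41 CPM in non-PoEMs and rose to 13.05 ± 3.58 CPM in PoEMs, by 1.27 ± 0.14 on the log2 scale (SD and SE, edgeR adjusted p = 1.56e-05). The chaperone gene Hsp90b1 rose by 0.16 ± 0.05, a call lost without the block (edgeR adjusted p = 0.292) and without tumour 2, 4 or 5 (0.123, 0.0636 and 0.134). Among the other adaptors, 2 of 4 were lower and none was higher. They were Pik3ap1, which encodes the adaptor BCAP, and Ticam1, which encodes TRIF, at -0.42 ± 0.06 and -0.32 ± 0.06 on the log2 scale (SE, edgeR adjusted p = 0.000281 and 0.00236).

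Of 17 signalling kinases and ligases, 6 were lower and 1 higher, against 14.3% and 13.8% of all genes tested. Without the tumour as a block 3 were lower and none higher, against 6.77% and 6.83% of all genes. Ikbkb, the catalytic kinase of the canonical NF-κB pathway, fell by 0.24 ± 0.04, the ubiquitin ligase gene Peli1 by 0.25 ± 0.05, Irak1 by 0.19 ± 0.04 and Irak4 by 0.25 ± 0.06 on the log2 scale (SE, edgeR adjusted p = 0.000811, 0.00285, 0.00474 and 0.00693). Irak4 was lower in 4 of 5 tumours and the others in 5 of 5, and the call for Peli1 was lost without the block (adjusted p = 0.0654). The gene that rose was the inducible kinase gene Irak2, by 0.18 ± 0.05 (SE, edgeR adjusted p = 0.0231). Its call was lost without the block (0.406), with DESeq2 (0.0858) and without tumour 2, 4 or 5 (0.0647, 0.119 and 0.101).

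Transcription factor genes of the NF-κB family fell. Of 9 tested factors 6 were lower and none higher, against 14.3% and 13.8% of all genes tested, and all 5 NF-κB subunit genes were among the 6. Nfkb2 went from 200.5 ± 23.4 to 135 ± 15.3 CPM, Relb from 62.4 ± 4.56 to 42.7 ± 3.87, Rel from 286 ± 33.5 to 214 ± 28.7 and Rela from 136 ± 6.40 to 109 ± 6.41 CPM (SD, n = 5 each). Their log2 fold changes were -0.57, -0.55, -0.42 and -0.32 (edgeR adjusted p = 2.84e-06, 5.08e-06, 1.02e-05 and 0.000121). Nfkb1 fell by 0.28 ± 0.04. The sixth was the interferon-inducible factor gene Irf7, which fell by 0.60 ± 0.08 (SE, edgeR adjusted p = 0.000468, and 0.203 without the block).

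Negative regulators, many of them NF-κB targets themselves, showed the same direction, with 9 of 14 lower and none higher, also without the block. Of all genes tested 14.3% were lower and 13.8% higher, and 6.77% and 6.83% without the block. Tnfaip3, which encodes the deubiquitinase A20, fell from 802 ± 70.0 to 530.5 ± 59.6 CPM, Nfkbie from 358 ± 56.5 to 216 ± 34.1 CPM and Nfkbib from 74.3 ± 7.66 to 54.7 ± 5.11 CPM (SD over 5 libraries, with edgeR adjusted p = 3.18e-06, 2.01e-07 and 2.29e-05). The latter pair encode NF-κB inhibitors. Il1rl1, the IL-33 receptor gene, measured 10.7 ± 5.62 CPM in non-PoEMs and fell to 0.860 ± 0.376 CPM in PoEMs, a change of -3.60 ± 0.19 on the log2 scale (SD and SE, edgeR adjusted p = 1.62e-08), beside the eosinophil gene Ccr3 at 16.7 ± 4.59 against 0.828 ± 0.337 CPM. Some of the regulators are also immediate early genes. Dusp1 and Nfkbia, given as examples and not as a full list, fell by 0.87 ± 0.13 and 0.39 ± 0.06 (SE), beside Fos and Junb at -0.67 ± 0.06 and -0.51 ± 0.05.

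Inducible target genes moved both ways, with 4 of 21 higher and 7 lower, against 13.8% and 14.3% of all genes tested. Without the block 2 were higher and 2 lower, against 6.83% and 6.77% of all genes. Nos2, the inducible nitric oxide synthase gene, measured 50.1 ± 32.01 CPM in non-PoEMs and 184 ± 87.7 CPM in PoEMs, and rose by 1.96 ± 0.09 on the log2 scale (SD and SE, edgeR adjusted p = 2.74e-07). The other members that rose were the cytokine gene Il1a and the chemokine genes Ccl3 and Ccl4, by 0.60 ± 0.15, 0.34 ± 0.10 and 0.38 ± 0.09 on the log2 scale (SE, edgeR adjusted p = 0.0342, 0.0449 and 0.0115). Of these calls, that of Il1a was lost without the block (0.0898), without a filter on low counts (0.101) and without tumour 2, 4 or 6 (0.0807, 0.113 and 0.0889). That of Ccl3 was lost without the block (0.131), without a filter (0.152) and without tumour 1, 2 or 5 (0.0692, 0.107 and 0.111), and that of Ccl4 without tumour 5 (0.0511). Lcn2, which encodes a siderophore-binding protein, fell from 5.31 ± 1.5 to 2.14 ± 0.824 CPM beside the neutrophil markers given above (edgeR adjusted p = 0.000214). The costimulatory gene Cd40 and the adhesion gene Icam1 fell by 0.46 ± 0.06 and 0.27 ± 0.05 (SE, edgeR adjusted p = 0.000131 and 0.00091), and both calls were lost without the block (adjusted p = 0.145 and 0.0545). Il1b fell by 0.27 ± 0.07, in 4 of 5 tumours (edgeR adjusted p = 0.00812, and 0.253 without the block). Among the IL-1 family receptors listed as using MyD88, 1 of 4 tested was higher and 1 lower. Il1rl1, the IL-33 receptor gene given above, was counted among the negative regulators and not in this list. Il1r1, the IL-1 receptor gene, measured 3.71 ± 2.39 CPM in non-PoEMs and 14.5 ± 19.2 CPM in PoEMs, with 48.6 CPM in PoEMs of tumour 5 (edgeR adjusted p = 0.017), a call lost without tumour 2 (0.0595), without tumour 6 (0.0572), without a filter on low counts (0.0615) and without the block (0.169). Il18rap fell by 0.42 ± 0.10 (SE, edgeR adjusted p = 0.0066, and 0.193 without the block).

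**Figure D4:**
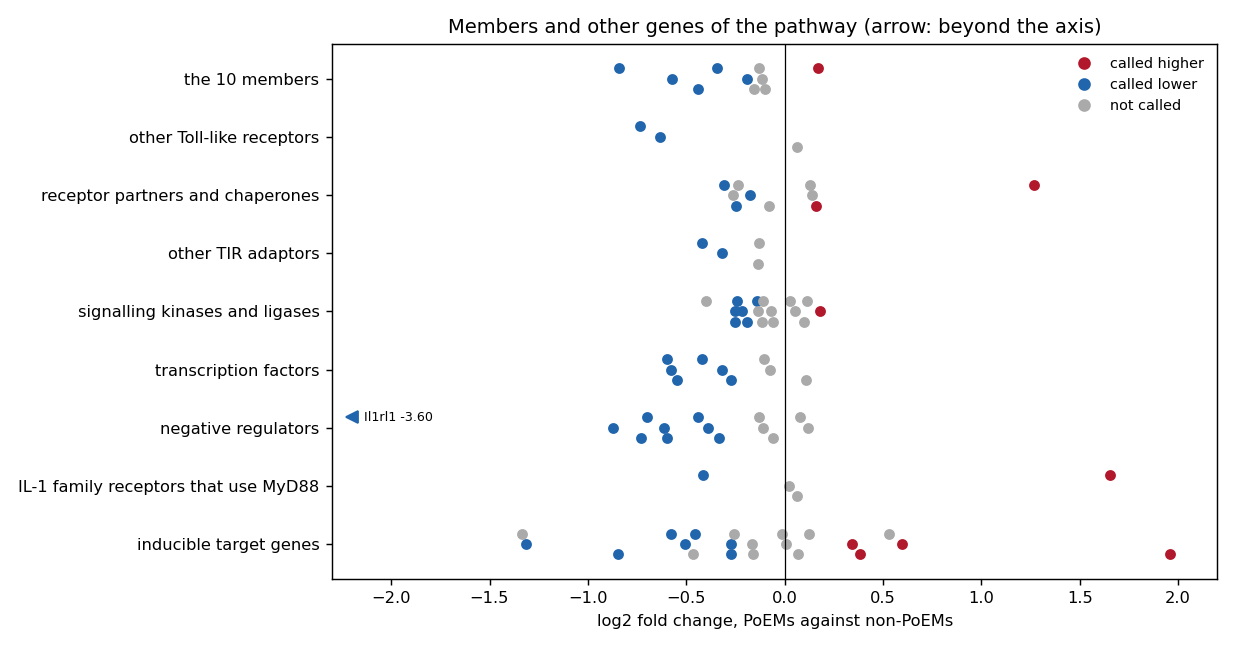
Fitted log2 fold changes in PoEMs against non-PoEMs (horizontal axis) of the 10 genes and of 8 fixed pathway lists, 1 point per tested gene, coloured by call, with vertical offsets for legibility only. Points for transcription factors and negative regulators that passed the test all lie below 0, and Il1rl1 lies beyond the axis at -3.60.

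The genes whose levels followed Tlr9 and Tlr4 most closely were sought over the 10 libraries, after the mean of each fraction was subtracted from log2 CPM. Pearson's r was highest with Tlr9 for Sgk3 (0.98), Fgd4 (0.97) and Gm15931 (0.96), and with Tlr4 for Erlec1 (0.97), Vps53 (0.97) and Tfec (0.94). Without the 2 libraries farthest from the median, those of tumour 2 for Tlr9 and of tumour 6 for Tlr4, r was 0.94, 0.95 and 0.93, and 0.93, 0.93 and 0.85. The 10 points come in pairs from 5 tumours, and the genes were the best of all tested, so these values describe the libraries only. Sgk3, Fgd4 and Gm15931 were lower in PoEMs by 0.54 ± 0.05, 0.34 ± 0.05 and 0.94 ± 0.07 on the log2 scale (SE), and the call of Fgd4 was lost without the block (edgeR adjusted p = 0.124). Of the genes that followed Tlr4, Tfec was higher by 0.38 ± 0.11 (edgeR adjusted p = 0.0353, lost without the block at 0.186, without a filter at 0.118 and without tumour 2, 4 or 6 at 0.0853, 0.059 and 0.125), while Erlec1 and Vps53 differed by 0.04 ± 0.07 and 0.08 ± 0.05.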

How the data were processed

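RNA of 10 libraries, 5 PoEMs and 5 non-PoEMs, was pre-amplified with SMART-Seq, per the labels' protocols. The authors deposited raw read counts per gene, which carry no molecular identifiers. Reads passed through featureCounts 1.5.3, STAR 2.5.2b, cutadapt 1.15 and Bowtie2 2.3.3.1 in an order not recorded, per the submitters' processing notes. Settings, strand counting, build and annotation: not given in the sources used here. Positions and exon lengths came from GENCODE M21 (GRCm38), which held 46091 of 46603 identifiers. Positions serve identification only. Exon lengths set the levels and ratios per exon length, and whether they match the annotation used for the counts is not known.

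The test was that of edgeR 4.0.16 (R 4.3.3): filterByExpr by group (minimum count 10, minimum total 15), TMM scaling, and a robust quasi-likelihood fit with group and tumour number, adjusted over the 13595 genes tested. SE is the absolute log2 fold change divided by the square root of the F statistic. Intervals are 95% and include the spread between libraries that remains with the tumour as a block. CPM are TMM-scaled, within-tumour ratios use no pseudocount, and log2 CPM for correlations use 0.5 CPM. The tumour number was used as a block because the labels give both fractions of a tumour the same number. Deviations from the fraction means correlated between same-numbered libraries at r from 0.249 to 0.528, and at most 0.109 between others. The fit was tested on simulated data. Alternatives were DESeq2 1.42.0, no block, library size alone, no filter, a non-robust fit and leaving out each tumour, which also removes the pair of any single library. No libraries of a fraction agreed within sampling noise (chi-square per gene at least 7.58).

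The genes and lists were chosen with earlier results of these data known. Named genes were drawn from the 10 genes, the other Toll-like receptors, up to 4 called genes of each other pathway list by lowest p (2 where none was called), the sort markers, up to 2 markers per cell type by mean CPM, and the 3 genes most like Tlr9 and Tlr4. Not every sort marker or cell type marker drawn this way is named in the text. Named after their values were seen were Cd68, Mertk, Csf1r, Fcgr1, Epcam, Krt8, Irak2, Hsp90b1, Il1a, Il1b, Ccl3, Ccl4, Nfkb1, Irf7, Dusp1, Nfkbia, Acaa1a, Fos, Junb, Hsph1, Siglech, Runx2, Spib, Ccr9, Klk1, Cox6a2, Ccr3, Epx and Prg2. Mesd and Acod1 were found under older symbols by identifier.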

Additional observations from a re-analysis of the deposited data

Results flagged for a closer look

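Of 20 sets of 5 values (10 genes in 2 fractions), 3 had 1 library whose gap to the nearest other exceeded Dixon's 95% limit of 0.71 of the range, where chance gives about 1 in 20. The sets are not independent, so these flags cannot be counted as separate. Over the 10 libraries, with fraction means subtracted, Pearson's r was -0.94 for Cd14 with Myd88, -0.86 for Tlr2 with Myd88 and 0.84 for Tlr2 with Cd14. All 3 flags belonged to tumour 1. Its PoEMs had 665 CPM of Tlr2, against 481 to 520.2 in the other PoEMs. Its non-PoEMs had 2701 CPM of Cd14, against 1966 to 2109 in the others, and 151.4 CPM of Myd88, against 190.6 to 204. Without tumour 1, Tlr2, Cd14 and Myd88 differed by -0.35, -0.18 and -0.46 on the log2 scale and were still called (edgeR adjusted p = 0.000605, 0.041 and 6.36e-05).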

How the results depend on the processing

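Of 100 alternative fits of the 10 genes, 92 kept direction and call, 6 kept direction but lost the call (Tlr4 in 4, Tlr2 and Cd14 without the block), 2 gained one (Tlr3 and Tlr6 without tumour 6) and none reversed. With no replicate block, 0 of the 10 genes were higher and 3 lower, and over all genes 929 were higher and 920 lower, against 1880 and 1950. Both fits called 1846 genes, of 1849 called in the fit that omits the block, with 0 opposite in direction. DESeq2 with the block called 0 of the 10 genes higher and 1219 of all genes higher. Leaving out 1 tumour gave 0 to 1 of the 10 genes higher and 5 to 7 lower, and over all genes 1360 to 1925 higher and 1380 to 2016 lower. Among the other named genes that did not pass the test, 3 changed sign: leaving out 1 tumour gave -0.009 (without tumour 6) to 0.055 for C1qc, -0.05 to 0.055 (without tumour 2) for Bst2 and -0.008 (without tumour 5) to 0.079 for Erlec1. The cause of these changes was not tested. Library size alone, no filter and a non-robust fit changed no call among the 10 genes. Each of the 10 genes had at least 344 counts in every library, while Tlr11 and Siglech had too few to be tested.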

Other observations

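Ratios of 2 of the genes within a library do not depend on scaling between libraries. They were chosen after the values were seen and are given without a test. Per exon length, the ratio of Tlr4 to Tlr2 was 0.103 ± 0.0183 in non-PoEMs and 0.148 ± 0.0266 in PoEMs (SD, n = 5 each), higher in PoEMs in 5 of 5 tumours. The ratio of Tlr4 to Myd88 was 0.321 ± 0.0504 in non-PoEMs and 0.486 ± 0.0295 in PoEMs, also higher in 5 of 5 tumours, with no overlap between the fractions. The ratio of Tlr9 to Tlr7 was 1.32 ± 0.211 in non-PoEMs and 0.807 ± 0.171 in PoEMs, lower in 5 of 5 tumours. Tlr9 exceeded Tlr7 per length in every non-PoEM library (1.18 at the lowest). In PoEMs the ratio ran from 0.613 to 1.07, and Tlr9 still exceeded Tlr7 in tumour 2. The ratio of Tlr1 to its neighbour Tlr6 fell from 5.42 ± 0.516 to 3.99 ± 0.495 and was likewise lower in 5 of 5 tumours.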
